A study of Oryza sativa with 36 samples.

Results

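The OsSPL family of rice encodes SQUAMOSA promoter-binding protein-like transcription factors, which share a DNA-binding domain called the SBP box. The members examined were 10 loci chosen from a list of identifiers and gene names, out of 55801 loci in the count table: OsSPL14 (LOC_Os08g39890), OsSPL17 (LOC_Os09g31438), OsSPL7 (LOC_Os04g46580), OsSPL13 (LOC_Os07g32170), OsSPL16 (LOC_Os08g41940), OsSPL18 (LOC_Os09g32944), OsSPL12 (LOC_Os06g49010), OsSPL3 (LOC_Os02g04680), OsSPL4 (LOC_Os02g07780) and OsSPL2 (LOC_Os01g69830). The count table holds identifiers only, so the gene names are those of that list. By their identifiers, OsSPL14 and OsSPL16 lie on chromosome 8, OsSPL17 and OsSPL18 on chromosome 9, OsSPL3 and OsSPL4 on chromosome 2, OsSPL7 on chromosome 4, OsSPL13 on chromosome 7, OsSPL12 on chromosome 6 and OsSPL2 on chromosome 1.

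SPL proteins switch on genes that set plant architecture, and most of their messages are cut or blocked by the microRNA miR156, which is abundant in young shoots. OsSPL14, also called IPA1 or WFP, is the best known: alleles that escape the microRNA give rice with fewer tillers and more branched panicles. In rice OsSPL14 binds the promoter of OsTB1, a repressor of axillary bud outgrowth.

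RNA came from meristem tissue of 2 lines, NIL-MP3 and Takanari, each sampled as AM1, AM2, AM3, AM4, AM5 and SAM. Takanari is a high-yielding indica rice. NIL-MP3 is, by its name, a near-isogenic line for MP3. From general knowledge, MP3 is a chromosome 3 locus for panicle number linked to OsTB1, a point that the labels do not give. The labels do not spell out the tissue codes, and they give the tissue of every library, SAM included, as axillary meristems. Plants of both lines grew in short days, with 10 h of light (27 °C) in each day and 14 h of night (25 °C). CEL-Seq2, which reads the 3' end of messages and counts molecules by a random barcode, was run from 100 pg of RNA a library. The 12 groups of line and tissue had 3 libraries each, except Takanari SAM with 2, since Takanari SAM replicate 18 did not align, per the labels. Whether each library is a plant of its own is not stated, so the p-values speak for the spread among these libraries, part or all of which may be technical.

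Totals ran from 77362 to 224706 molecules a library, lowest on average in AM5 at 110750 ± 29303 (SD, n = 6). Levels are in CPM, counts scaled to the library's normalised total over the 6943 loci that passed a filter on low counts. A single molecule was worth 5.05 to 16.9 CPM. A message gives 1 tag whatever its length, so levels were not divided by length. Of 4 meristem marker loci (class I KNOX genes, a list made from general knowledge), 3 had counts in AM5, 3 in AM1 and 3 in SAM. Their summed level was 155 to 598 CPM in AM5, 430.0 to 568 CPM in AM1 and 312 to 463 CPM in SAM. All 5 leaf blade marker loci (photosynthesis genes) had counts in all 3 tissues, with summed levels of 33.3 to 109 CPM in AM5, 32.4 to 124 CPM in AM1 and 7.61 to 84.4 CPM in SAM. Their part in the differences below was not tested. In bulk tissue, fewer cells that express a gene and less RNA of it per cell cannot be told apart.

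Of the 10 members, 6 passed the filter and were tested. These were OsSPL14 with 779 molecules over the 35 libraries, OsSPL17 with 447, OsSPL13 with 424, OsSPL3 with 389, OsSPL12 with 280 and OsSPL2 with 253. The other 4 did not pass: OsSPL4 with 75 molecules, OsSPL18 with 65, OsSPL16 with 17 and OsSPL7 with 15. The filter asks for counts in a few libraries only, so a member can pass through the tissue where it is highest.

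The 4 tested members OsSPL14, OsSPL17, OsSPL13 and OsSPL3 were lower in AM5 than in SAM, by 2.5-fold to 6.48-fold. Of these, OsSPL13, OsSPL3 and OsSPL14 also fell over the AM numbers in edgeR, OsSPL13 by the most, but OsSPL14 did not pass there in DESeq2 or limma. OsSPL12 and OsSPL2 passed no test of tissue. No member passed a test between the lines, although OsSPL14 and OsSPL2 had the higher mean in NIL-MP3 in all 6 tissues.

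**Figure D1:**
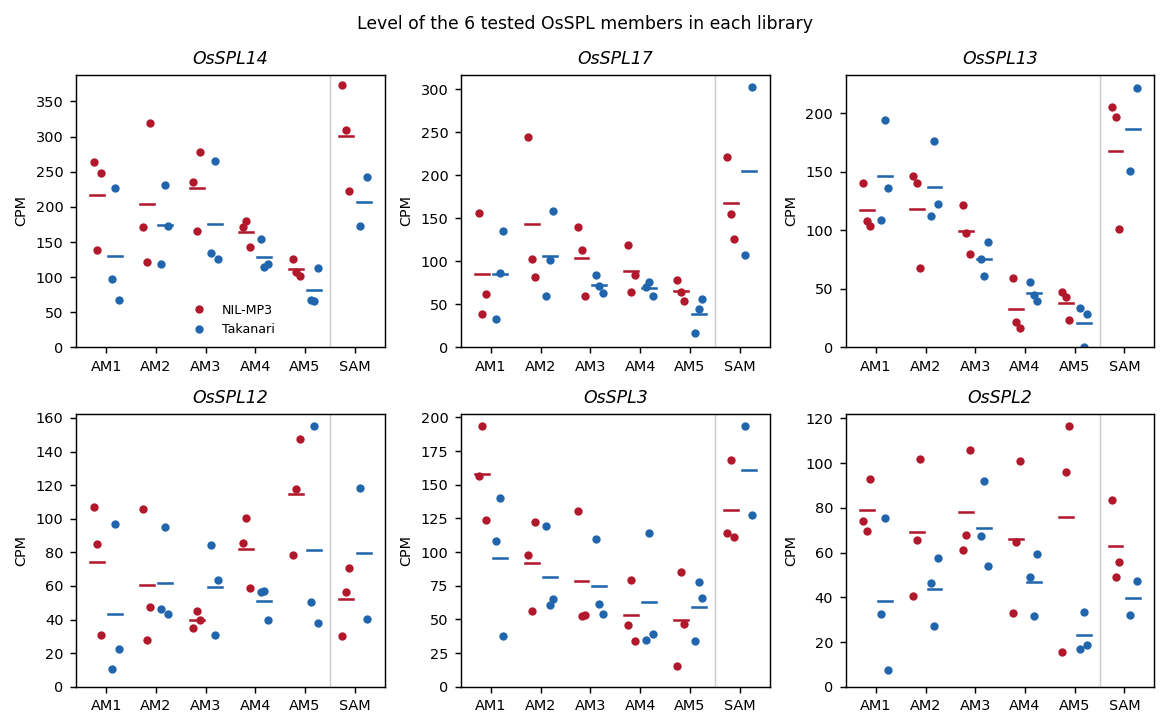
Level in CPM (vertical axis, each panel with its own scale from 0) of the 6 tested members in each library, by tissue label, with NIL-MP3 in red and Takanari in blue. Points are libraries and bars are group means. OsSPL13 shows the clearest descent, with every AM4 and AM5 library at or below 59.4 CPM.

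OsSPL14 restrains tillering and promotes panicle branching. In NIL-MP3 its levels were 264, 139 and 248 CPM in AM1, 171, 122 and 319 CPM in AM2, 235, 166 and 278 CPM in AM3, 172, 179.9 and 143 CPM in AM4, and 126, 107 and 101 CPM in AM5. NIL-MP3 SAM libraries had 373, 309 and 222 CPM. In Takanari the levels were 97.7, 227 and 67.9 CPM in AM1, 119, 231 and 173 CPM in AM2, 135, 266 and 127 CPM in AM3, 154, 114 and 118 CPM in AM4, and 67.4, 66.5 and 113 CPM in AM5. Takanari SAM libraries had 172 and 242 CPM. AM5 was low in both lines, every AM5 library lay below every SAM library, and AM1, AM2 and AM3 libraries were widely scattered. The share of all tested loci whose AM5 and SAM libraries do not overlap was not counted, here or for the members below.

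By tissue, OsSPL14 averaged 174 ± 83.2 CPM in AM1, 189 ± 75.8 CPM in AM2 and 201 ± 67.0 CPM in AM3. It averaged 147 ± 27.0 CPM in AM4 and 96.8 ± 24.5 CPM in AM5 (SD, n = 6 for each AM tissue), against 264 ± 78.3 CPM in SAM (n = 5). The order from high to low was SAM, AM3, AM2, AM1, AM4 and AM5. Only the step between AM4 and AM5 exceeded the larger SD of its 2 neighbours, and the ranges of all neighbours overlapped. The AM5 level was 2.58-fold below SAM, a log2 difference of -1.37 ± 0.31 (SE, 95% interval -1.98 to -0.76, adjusted p = 8.97e-04 in edgeR's quasi-likelihood test). The slope over AM1 to AM5 was -0.19 ± 0.067 per label number (SE, adjusted p = 0.0304), a fitted 1.7-fold decrease over 4 steps. It did not pass in DESeq2 (adjusted p = 0.0531), in limma voom (adjusted p = 0.125), in limma voom with runs of 6 library numbers, defined below as sets, as a random effect (adjusted p = 0.0836) or without the 2 libraries of lowest total, both AM5 (adjusted p = 0.0716). Over AM1 to AM4 alone the slope was -0.05 (adjusted p = 0.796). It did not pass either without Takanari AM1 replicate 11, at -0.13 (adjusted p = 0.213), or without any 1 of NIL-MP3 AM1 replicate 5, AM2 replicate 16 and AM5 replicate 13 and Takanari AM5 replicates 1 and 7 (adjusted p from 0.0604 to 0.0776).

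OsSPL17 is the close paralog of OsSPL14 and acts with it on tillers and panicles. How molecules that match both of a pair of paralogs were counted is not given, so the values of OsSPL14 with OsSPL17, OsSPL3 with OsSPL12 and OsSPL16 with OsSPL18 are uncertain to that extent. OsSPL17 had 16.9, 55.6 and 78.5 CPM (lowest, median and highest) in AM5, against 221, 155, 126, 108 and 303 CPM in the 5 SAM libraries. No AM5 library reached the lowest SAM library. The log2 difference AM5 minus SAM was -1.83 ± 0.40 (SE, adjusted p = 4.43e-04), a 3.56-fold lower level. Without Takanari SAM replicate 12, the library at 303 CPM, it was -1.36 (adjusted p = 0.0673). The medians of OsSPL17 in AM1, AM2, AM3 and AM4 were 74.2, 102, 77.9 and 73.2 CPM. Its slope of -0.21 ± 0.090 per label number (SE) did not pass (adjusted p = 0.0812), but passed without NIL-MP3 AM1 replicate 11 (-0.25, adjusted p = 0.0387) or Takanari AM1 replicate 5 (-0.25, adjusted p = 0.0404). Those were 2 of 35 fits with a library left out, in which the slope ran from -0.25 to -0.13. Other settings gave an adjusted p up to 0.654.

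In each library OsSPL14 and OsSPL17 can be set side by side as counts. OsSPL14 gave 64.6% of the pair's molecules in AM5, 59.1% in SAM and 61.3% to 69.7% in the other tissues. It had more molecules than OsSPL17 in 6 of 6 AM5 and 4 of 5 SAM libraries. The difference in share was not tested.

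OsSPL13, also known as GLW7, promotes grain length. Its levels in AM1 were 140.0, 108 and 103 CPM in NIL-MP3 and 109, 194 and 136 CPM in Takanari. In AM2 they were 146, 141 and 68.0 CPM in NIL-MP3 and 113, 176 and 123 CPM in Takanari. In AM3 they were 122, 98.0 and 79.4 CPM in NIL-MP3 and 76.0, 61.3 and 90.4 CPM in Takanari. In each of these tissues the libraries of the 2 lines overlapped.

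OsSPL13 was at 59.4, 21.6 and 16.8 CPM in NIL-MP3 AM4 and at 56.1, 44.5 and 39.5 CPM in Takanari AM4. In AM5 it had 47.1, 42.7 and 23.3 CPM in NIL-MP3 and 33.7, 0 and 28.3 CPM in Takanari, from 15 molecules over 6 libraries. The 0 is that of Takanari AM5 replicate 7, where a count of 0 allows up to 33.3 CPM. SAM libraries had 206, 197 and 101 CPM in NIL-MP3 and 151 and 222 CPM in Takanari. The AM3 and AM4 ranges did not overlap, and neither did those of AM5 and AM1 or of AM5 and SAM. How often this held over all tested loci was not counted. AM3 and AM4 were picked among neighbouring tissues after the values were seen.

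The slope of OsSPL13 was -0.62 ± 0.097 per label number (SE, 95% interval -0.81 to -0.42, adjusted p = 9.83e-08), a fitted 5.52-fold decrease over 4 steps. It was the 40th lowest p-value of the 6943 loci tested. The level fell in both lines, with slopes of -0.52 ± 0.12 in NIL-MP3 (adjusted p = 0.00252) and -0.72 ± 0.15 in Takanari (SE, adjusted p = 5.35e-05). AM5 was lower than SAM by 2.7 ± 0.45 on the log2 scale (SE, adjusted p = 1.38e-06), a 6.48-fold difference. AM1 was not set apart from SAM, at -0.43 (95% interval -1.01 to 0.14, adjusted p = 0.807). Over AM1 to AM4 alone the slope was -0.56 and still passed (adjusted p = 1.19e-04).

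OsSPL3 takes part in crown root development. It had 15.7, 56.4 and 85.5 CPM (lowest, median and highest) in AM5, 37.7, 132 and 193 CPM in AM1, and 114, 169, 111, 194 and 128 CPM in the 5 SAM libraries. AM5 and SAM did not overlap, whereas AM5 and AM1 did. AM5 was lower than SAM by a log2 difference of -1.32 ± 0.39 (SE, adjusted p = 0.013), a 2.5-fold lower level. The slope was -0.27 ± 0.085 per label number (SE, adjusted p = 0.0133), a fitted 2.12-fold decrease over 4 steps. The slope did not pass without Takanari AM1 replicate 11 (-0.23, adjusted p = 0.0596), and AM5 against SAM did not pass without Takanari SAM replicate 6 (-1.18, adjusted p = 0.0762). Without the 2 libraries of lowest total, NIL-MP3 AM5 replicate 1 and Takanari AM5 replicate 1, neither passed (-0.22, adjusted p = 0.0778, and -1.06, adjusted p = 0.0888).

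OsSPL12, the paralog of OsSPL3, had its highest mean in AM5, the tissue with the lowest mean of OsSPL3. It averaged 97.9 ± 49.8 CPM in AM5 (SD, range 37.8 to 155, n = 6), 59.0 ± 42.1 CPM in AM1 (range 10.9 to 107, n = 6) and 63.2 ± 34.5 CPM in SAM (range 30.4 to 118, n = 5). These ranges overlapped. Neither the slope of 0.17 ± 0.092 per label number (SE, 95% interval -0.02 to 0.35, adjusted p = 0.197) nor the log2 difference AM5 minus SAM of 0.64 ± 0.41 (SE, adjusted p = 0.381) passed. Without Takanari AM1 replicate 11 the slope was 0.29 and passed (adjusted p = 0.0359). That was 1 of 35 fits with a library left out, in which the slope ran from 0.079 to 0.29. Other settings gave slopes down to 0.032, with adjusted p up to 0.917.

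As a share of the molecules of the pair, OsSPL12 gave 64.4% in AM5, with 56 molecules against 31 of OsSPL3, and 30.5% in SAM, with 43 against 98. The share was 32.3% in AM1, 41% in AM2, 39.6% in AM3 and 52.9% in AM4. OsSPL12 had more molecules than OsSPL3 in 5 of 6 AM5 libraries, and in 0 of 6 AM1 and 0 of 5 SAM libraries. The change of share was not tested.

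OsSPL2 is a less studied member. It averaged 49.6 ± 44.9 CPM in AM5 (SD, n = 6), 58.8 ± 32.0 CPM in AM1 and 53.6 ± 18.9 CPM in SAM (n = 5), and was highest in AM3 at 74.7 ± 19.9 CPM. Its slope of -0.05 ± 0.10 per label number had a 95% interval of -0.26 to 0.15 (SE, adjusted p = 0.763). With the tissues ordered by mean, each gap between neighbours was smaller than the larger SD of the 2.

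**Figure D2:**
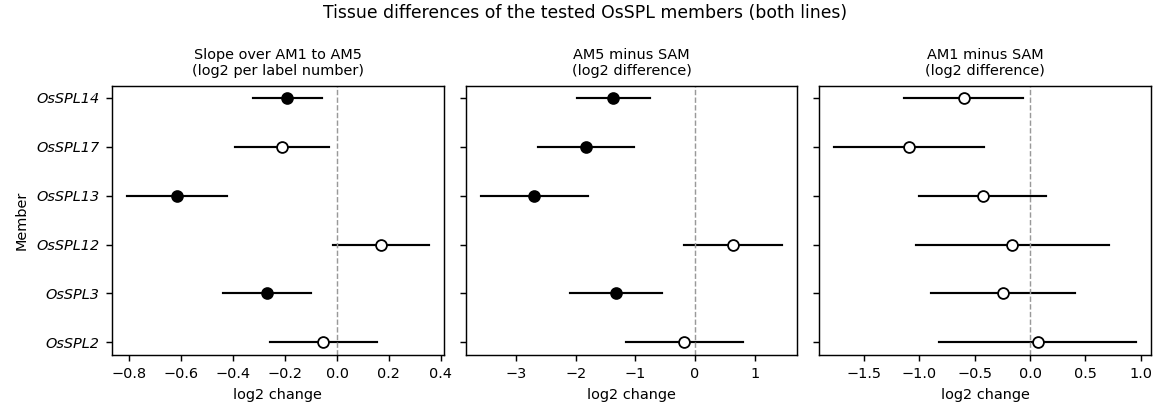
Fitted log2 change with 95% interval (horizontal axis) for the 6 tested members, from left to right the slope per label number over AM1 to AM5, AM5 minus SAM and AM1 minus SAM, over both lines. Filled points passed at an adjusted p under 0.05. OsSPL12 lies right of 0 in the first and middle panels at 0.17 and 0.64, and OsSPL13 lies farthest left there at -0.62 and -2.70.

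Of the 6 tested members, 3 had a falling slope and 0 a rising one. Of all tested loci, 9.81% fell and 9.36% rose, 19.2% in all. In AM5 against SAM, 4 of the 6 tested members were lower and 0 higher. Of all tested loci, 4.68% were lower there and 5.53% higher, 10.2% in all. The median log2 difference was -1.35 over the 6 tested members and -0.00169 over all tested loci, and the median slope -0.20 against 2.88e-05 per label number. Since the members were chosen with earlier results of these data known, these figures carry no test of the family. The joint test of any difference between tissues called the same 4 members, OsSPL14, OsSPL17, OsSPL13 and OsSPL3 (adjusted p from 5.67e-08 to 0.0124), where 14.8% of all tested loci were called. AM5 is part of both the slope and AM5 minus SAM, so these comparisons share libraries.

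Over all AM tissues against SAM, 2 of the 6 tested members were lower, where 0.965% of all tested loci were lower and 0.389% higher. In AM, OsSPL13 had a mean of 83.2 ± 50.1 CPM (SD, n = 30), against 175 ± 49.2 CPM (n = 5) in SAM, a log2 difference of -1.35 ± 0.24 (SE, adjusted p = 3.55e-04). OsSPL17 averaged 86.0 ± 45.9 CPM in AM and 182 ± 79.8 CPM in SAM, a log2 difference of -1.18 ± 0.25 (SE, adjusted p = 0.00436). Both calls ended without Takanari SAM replicate 12, at -1.18 (adjusted p = 0.106) for OsSPL13 and -0.69 (adjusted p = 0.562) for OsSPL17. OsSPL14 (-0.70 ± 0.21, adjusted p = 0.069) and OsSPL3 (-0.89 ± 0.26, SE, adjusted p = 0.0592) did not pass. Of 35 fits with 1 library left out, OsSPL14 passed in 5 and OsSPL3 in 6, each without an AM library. Over these 35 the difference ran from -0.79 to -0.55 for OsSPL14 and from -1.03 to -0.74 for OsSPL3, so other omissions weakened it. Both also passed with the library-number sets as a replicate block of 6 levels (-0.64, adjusted p = 0.0271 for OsSPL14, and -0.77, adjusted p = 0.039 for OsSPL3). They passed as well with the sets as a random effect in limma, with limma voom and with no filter (adjusted p from 0.0143 to 0.0441).

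AM1 against SAM called 0 of the 6 tested members in edgeR, and 0 in DESeq2 and limma. Of all tested loci edgeR called 0.144%, 0.115% higher and 0.0288% lower. At an unadjusted p under 0.05 there were 481 of the 6943 loci and 2 members, OsSPL14 (-0.60 ± 0.27) and OsSPL17 (-1.09 ± 0.34, SE). With the replicate block of 6 levels OsSPL17 passed (-1.23 ± 0.29, SE, adjusted p = 0.0113). OsSPL17 averaged 85.3 ± 51.2 CPM in AM1 (SD, n = 6) and 182 ± 79.8 CPM in SAM (n = 5), and the ranges overlapped.

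Within a line, the library numbers form 3 runs of 6, here called sets, with 1 library of each tissue in a run. After subtracting group means, the median correlation was 0.144 between libraries of 1 set and -0.069 between libraries of different sets. Deviations within a group sum to 0, so the negative value follows from the positive one and is no separate result. Within sets, OsSPL13 was lower in AM5 than in AM1 in 6 of 6 sets, with slopes of log2 CPM from -0.90 to -0.35 per label number. OsSPL14, OsSPL17 and OsSPL3 were lower in AM5 than in AM1 in 5 of 6 sets each. For OsSPL14 the exception was Takanari numbers 13 to 18, with 113 CPM in AM5 and 67.9 CPM in AM1. All 4 were lower in AM5 than in SAM in 5 of the 5 sets that have a SAM library. These 5 of 5, and the 6 of 6 of OsSPL13 against AM1, follow from ranges that do not overlap and add nothing to them. OsSPL12 was lower in AM5 in 1 of 6 sets against AM1 and in 1 of 5 against SAM.

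The summed level of the 10 members was 407 ± 96.2 CPM in AM5 (SD, n = 6) and 926 ± 162 CPM in SAM (n = 5), with 667 ± 207 CPM in AM1, 690.3 ± 130 CPM in AM2, 624 ± 109 CPM in AM3 and 493 ± 67.2 CPM in AM4. OsSPL14 held 24.4% ± 6.89 of the molecules of these 10 members in AM5 and 28.3% ± 5.44 in SAM (SD). Other SBP-box loci are not in this sum. OsSPL13 held 7.48% ± 4.64 in AM5 and 18.7% ± 2.82 in SAM. OsSPL12 held 23.4% ± 10.2 in AM5 and 7.46% ± 5.09 in SAM. These shares are not independent of each other, since they add up to the whole.

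**Figure D3:**
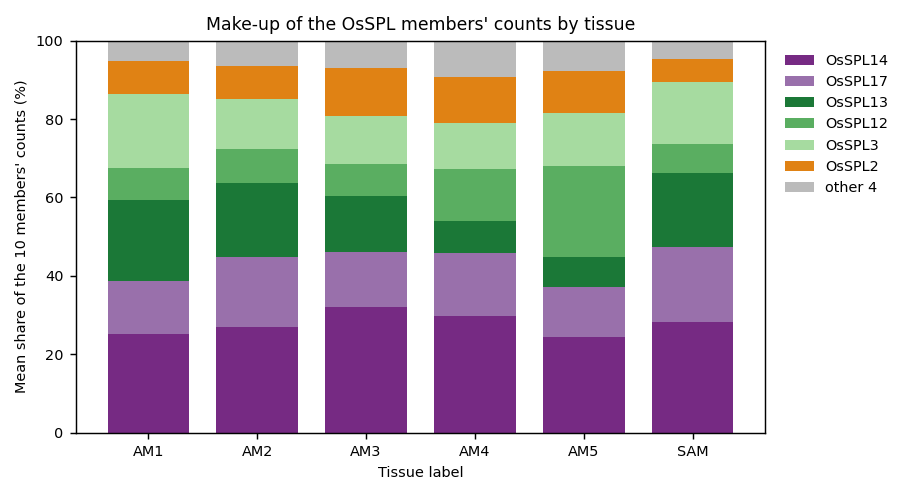
Mean share (%) of the molecules of all 10 members that each member gave, by tissue label, averaged over 6 libraries (5 for SAM). The OsSPL12 band is 23.4% in AM5 and 7.46% in SAM, and the OsSPL13 band 7.48% in AM5 and 18.7% in SAM.

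NIL-MP3 was compared with Takanari to ask whether the MP3 segment goes with a different level of these regulators. Over 6 tissues edgeR called 0 of the 6 tested members, where it called 1.3% of all tested loci, 0.879% higher and 0.418% lower. DESeq2 and limma also called 0, and 2 members had an unadjusted p under 0.05, as did 957 of the 6943 loci. The 2 were OsSPL14, with 204 ± 80.6 CPM in NIL-MP3 (SD, n = 18) against 147 ± 63.1 CPM in Takanari (n = 17), and OsSPL2, with 72.0 ± 27.4 CPM in NIL-MP3 against 44.1 ± 22.3 CPM in Takanari. These SDs are over libraries of all 6 tissues, so they take in differences between tissues. The meristem markers summed to 264 to 598 CPM in NIL-MP3 and 155 to 527 CPM in Takanari, and the leaf blade markers to 7.61 to 196 CPM in NIL-MP3 and 32.3 to 265 CPM in Takanari. Their part was not tested.

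The log2 difference of OsSPL14 was 0.44 ± 0.16 (SE, 95% interval 0.12 to 0.75, adjusted p = 0.164). It passed under no other setting tried, and its adjusted p reached 0.584 among them. The interval comes from a fit without the library-number sets, within which libraries deviated together (median r = 0.144). It may thus be too narrow, as may that of OsSPL2 below. The mean of OsSPL14 was higher in NIL-MP3 in 6 of 6 tissues, and the libraries of the lines overlapped in each. The tissues of a line come from the same 3 sets, so these 6 may not be independent. How many of all tested loci kept 1 direction in 6 tissues was not counted. The mean over AM1 to AM5 was 193, 143 and 218 CPM in the 3 NIL-MP3 sets of library numbers and 115, 181 and 120 CPM in the 3 Takanari sets. One Takanari set thus lay above 1 NIL-MP3 set.

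The log2 difference of OsSPL2 was 0.81 ± 0.25 (SE, 95% interval 0.31 to 1.30, adjusted p = 0.0701), the smallest adjusted p among the members. Its mean was higher in NIL-MP3 in 6 of 6 tissues, a count with the same limits as that of OsSPL14. In SAM it had 83.7, 49.2 and 55.6 CPM in NIL-MP3 and 32.3 and 47.1 CPM in Takanari. These 3 and 2 libraries did not overlap, which held for 21.2% of all tested loci in SAM. The AM means per set were 44.9, 72.8 and 104 CPM in NIL-MP3 and 42.5, 51.9 and 39.5 CPM in Takanari. The difference did pass without the 2 AM5 libraries of lowest total (0.85, adjusted p = 0.0471) and without any 1 of NIL-MP3 AM2 replicate 4, AM4 replicate 2 and AM5 replicate 1 and Takanari AM1 replicate 11 (adjusted p from 0.027 to 0.0441). In the other direction, its adjusted p was up to 0.149 with 1 library left out and 0.443 in limma voom with sets as a random effect.

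For OsSPL13 the log2 difference was -0.00 ± 0.21 (SE), with a 95% interval of -0.43 to 0.42. The intervals of OsSPL17 (-0.18 to 0.66), OsSPL12 (-0.31 to 0.65) and OsSPL3 (-0.38 to 0.45) also took in 0, which does not show that the lines were alike. In single tissues 0 members were called in edgeR, DESeq2 and limma, and edgeR called 0% of all tested loci. Of the 36 member values, 2 had an unadjusted p under 0.05. These were OsSPL14 in AM1 (0.76 ± 0.38), where 404 of the 6943 loci did, and OsSPL2 in AM5 (1.79 ± 0.74, SE), where 363 did. OsSPL2 had 15.7, 96.2 and 117 CPM in NIL-MP3 AM5 and 16.9, 33.3 and 18.9 CPM in Takanari AM5, so the libraries overlapped. Besides OsSPL2 in SAM, the lines did not overlap for OsSPL12 in AM4, with 85.8, 101 and 58.8 CPM in NIL-MP3 and 56.1, 57.2 and 39.5 CPM in Takanari (log2 difference 0.66, adjusted p = 0.998 in edgeR), as for 10.3% of all tested loci there.

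Whether the tissue pattern differed between the lines was tested as an interaction. Of the 6 tested members, 0 were called by edgeR, DESeq2 or limma, with 0 at an unadjusted p under 0.05. Of all tested loci, edgeR called 0%. Within the lines, 2 members had a falling slope in NIL-MP3, where 2.66% of all tested loci fell, 2.41% rose and 5.07% changed either way. In Takanari 1 member had a falling slope, where 5.89% of all tested loci fell, 5.52% rose and 11.4% changed either way. The slope of OsSPL14 was -0.23 ± 0.088 in NIL-MP3 and -0.16 ± 0.10 in Takanari (SE), an interaction of -0.07 (95% interval -0.34 to 0.19). The slope of OsSPL3 was -0.40 ± 0.12 in NIL-MP3 (adjusted p = 0.0214) and -0.14 ± 0.12 in Takanari (SE, adjusted p = 0.508), and the interaction was -0.26 (95% interval -0.60 to 0.08, adjusted p = 0.991). The NIL-MP3 slope of OsSPL3 did not pass without any 1 of NIL-MP3 AM1 replicates 5 and 11 and AM5 replicates 1 and 13 (adjusted p from 0.0516 to 0.0972).

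**Figure D4:**
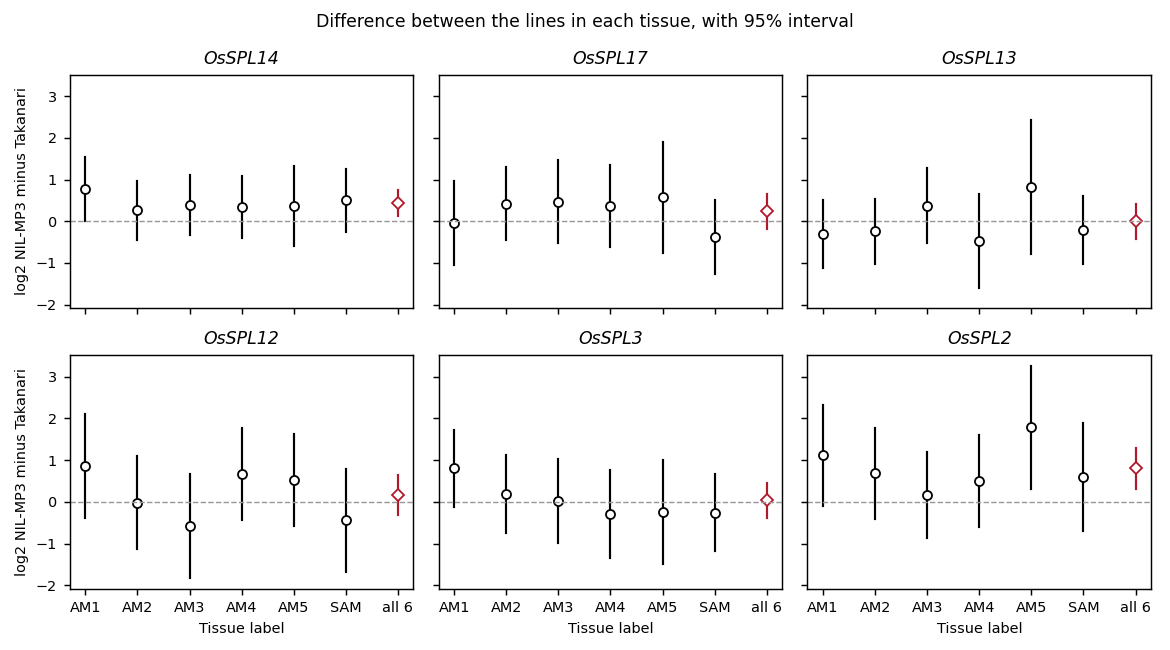
Fitted log2 difference NIL-MP3 minus Takanari with 95% interval (vertical axis) in each tissue (black circles) and over all 6 (red diamonds) for the 6 tested members. OsSPL14 and OsSPL2 lie above 0 in every tissue, at 0.44 and 0.81 over all 6, and no point passed at an adjusted p under 0.05.

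Of the members under the filter, OsSPL4 had 4 molecules in AM5 and 8 in SAM, and 11, 16, 17 and 19 in AM1, AM2, AM3 and AM4. It had 51 molecules in the 18 NIL-MP3 libraries (mean 21.2 CPM) and 24 in the 17 Takanari libraries (mean 12.1 CPM). With no filter its log2 difference between the lines over 6 tissues was 0.67 in edgeR (unadjusted p = 0.212, adjusted p = 0.9999). In AM2 the 3 NIL-MP3 libraries had 24.4, 37.5 and 54.4 CPM and the 3 Takanari libraries 6.62, 0 and 0 CPM, a tissue picked after the values were seen. With no filter its log2 difference there was 3.58 (unadjusted p = 0.0019, adjusted p = 0.994).

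OsSPL18, which affects grain size, had 48 molecules in the 30 AM libraries and 17 in the 5 SAM libraries, and 9 of those 17 were in Takanari SAM replicate 12. OsSPL16, also known as GW8 and a regulator of grain width, had 13 molecules in AM and 4 in SAM. Of the 13, 8 came from AM4, where 5 of 6 libraries had a molecule, and 0 from AM3, which allows up to 4.14 CPM over that tissue. OsSPL7, which acts with OsSPL14 and OsSPL17 on branching, had 6 molecules in AM2, 4 in AM3 and 5 in SAM. It had 0 in AM1, AM4 and AM5, which allows up to 4.51, 3.7 and 5.54 CPM. These limits cover counting error only. With no filter, none of the 4 passed in edgeR in any of these comparisons, and their smallest adjusted p was 0.352, for OsSPL7 in the test of any difference between tissues.

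Over the 12 groups, mean log2 CPM of OsSPL14 was most alike, among the members, to that of OsSPL17 (Pearson's r = 0.824) and OsSPL13 (r = 0.704), and least alike to that of OsSPL12 (r = -0.236). OsSPL13 and OsSPL3 had r = 0.814. The group means share the tissue order and library depth, so these values describe the pattern and carry no test. Outside the family, the 3 loci most like OsSPL14 were LOC_Os03g61570 on chromosome 3 (r = 0.910), LOC_Os07g41090 on chromosome 7 (r = 0.855) and LOC_Os01g61500 on chromosome 1 (r = 0.854). None of these 3 passed for the slope or for AM5 against SAM (adjusted p from 0.18 to 0.573).

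Of 9 further SBP-box loci, listed from general knowledge, 8 had counts, 4 were tested and 0 were called by edgeR in the slope or in AM5 against SAM, with 1 at an unadjusted p under 0.05 in the slope and 0 in AM5 against SAM. Over all tested loci that p was reached by 2126 in the slope and 1549 in AM5 against SAM. The slopes of the 4 tested SBP-box loci ran from 0.06 to 0.21 per label number, with a median of 0.16. Their log2 differences AM5 minus SAM ran from 0.23 to 0.80. Of 12 loci listed in the same way for genes that act with OsSPL14 on branching or panicles, 8 were tested. In the slope 2 of them rose and 0 fell, and in AM5 against SAM 3 were higher and 0 lower, with medians of 0.08 per label number and 0.86 on the log2 scale. Of all tested loci, 9.36% rose in the slope and 5.53% were higher in AM5 than in SAM. The count table does not pair these identifiers with names, so these loci are given as counts.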

How the data were processed

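The deposited values were counts of molecules (UMIs) per locus in 35 libraries, not normalized. Tools listed in the submitters' processing notes, without a stated role, are Bowtie2 and Subread 2.1. Genome build, annotation, use of strand and treatment of shared reads: not given in the sources used here. Members and lists were chosen with earlier results of these data known.

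Loci were kept by filterByExpr (minimum count 10) over the 12 groups, scaled by TMM and tested in edgeR 4.0.16 (R 4.3.3) by the quasi-likelihood F test, robust, with 1 mean per group. P-values were Benjamini-Hochberg adjusted over all 6943 tested loci, threshold 0.05. Standard errors are Wald errors of that fit, and log2 CPM used a prior count of 2. Every member is named in each comparison, and the 3 loci most correlated with OsSPL14 over the 12 groups are named by rule.

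Alternatives were other scaling (DESeq2's RLE, upper quartile), other filters (none, minimum count 20), DESeq2 1.42.0, limma 3.58.1 with and without sets of library numbers as random effect, thinned counts, blocks and left-out libraries. The scripts were tested on simulated data. Same-numbered libraries of the lines did not deviate together (r over 0.1 in 2 of 17 pairs).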

Additional observations from a re-analysis of the deposited data

How the results depend on the processing

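Of the 12 member values with a direction that passed in the edgeR test (the joint test of tissues is not among them), 548 values under other settings were computed. For each of the 12, 35 of these settings leave out 1 library. The 12 were picked for passing and the fits share most libraries, so a kept direction was likely beforehand. All 548 kept their direction, 522 passed and 26 did not. The slope of OsSPL2, which did not pass, was 0.053 over AM1 to AM4 alone, an alternative chosen after seeing the data, and ran from -0.11 to 0.042 with 1 library left out at a time. The cause of the changes below was not tested.

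Without the 2 libraries of lowest total, both AM5, 1 member had a slope (3 in the main test), 1 had a slope in NIL-MP3 (2) and 1 differed between the lines (0). Over AM1 to AM4 alone 1 had a slope in NIL-MP3. In AM minus SAM 4 members passed with no filter, with limma voom, with sets as random effect (consensus correlation 0.127) and with a replicate block of 6 levels, and 1 in thinned counts (2 in the main test). With that block OsSPL17 also passed in AM1 minus SAM, the 1 member to do so. The replicate blocks of 3 and 18 levels changed no count of members between the lines. The labels do not say whether same-numbered libraries of the lines share more than a number. Of 35 libraries, 12 correlated best with their own number, among at most 3 libraries of that tissue in the other line. With 1 library left out at a time, the count was 2 to 4 for the slope, 1 to 2 in NIL-MP3, 1 in Takanari, 0 to 4 for AM minus SAM, 3 to 4 for AM5 minus SAM and for any difference between tissues, and 0 to 1 between the lines. Where this left 1 Takanari SAM library, it was assumed to vary like the other groups.

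The slope of OsSPL14 did not pass in DESeq2 (adjusted p = 0.0531) or limma voom (0.125), and its adjusted p ran from 0.0113 to 0.796. OsSPL3 in AM5 minus SAM had 0.0553 in thinned counts. The line difference of OsSPL2 passed without NIL-MP3 AM2 replicate 4, AM4 replicate 2 or AM5 replicate 1, or Takanari AM1 replicate 11 (adjusted p from 0.027 to 0.0441), and its adjusted p reached 0.443 with sets as random effect. In NIL-MP3 the slope of OsSPL3 did not pass without AM1 replicates 5 or 11 or AM5 replicates 1 or 13.

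Calls over all loci moved by over 1.5 times as follows. The slope had 1331, against 817 in thinned counts and 783 over AM1 to AM4. In NIL-MP3 it had 352, against 575 with the block of 6 levels and 92 over AM1 to AM4, and in Takanari 792, against 325 over AM1 to AM4. AM minus SAM had 94, against 155 with no filter, 144 with limma voom, 230 with sets as random effect, 282 with the block, 31 in thinned counts and 26 over AM1 to AM4. AM1 minus SAM had 10, 8 of them higher, against 6 with upper quartile scaling, 4 of them higher, and 2 to 27 elsewhere. AM5 minus SAM had 709, against 408 in thinned counts, and any difference between tissues 1026, against 652. Between the lines there were 90, against 143 with no filter, 23 in thinned counts, 13 with sets as random effect and 44 with the block of 18 levels. Thinning and filters also change how many loci are tested. Depth limits OsSPL4, OsSPL18, OsSPL16 and OsSPL7 most, at 15 to 75 molecules in all.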
